A study of Mus musculus with 6 samples.

Results

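Signal at the array probes for 4 mRNAs of mouse brain, Actb, Gpi1, Prdx2 and Chgb, was examined in cortical RNA that had been treated with RNase R, an enzyme that digests linear RNA from its ends, before labelling. They are 4 of the 50 mRNA probes on an array that otherwise measures circular RNAs (circRNAs) with 1797 probes. The probes were found by transcript, and each gene had 1 probe: A_51_P173760 for Actb (NM_007393), A_51_P426886 for Gpi1 (NM_008155), A_51_P147207 for Prdx2 (NM_011563) and A_51_P191669 for Chgb (NM_007694). The genes were proposed as abundant cortical transcripts, and the levels used here had no part in the rule that finds their probes. The genes themselves were chosen with earlier results of these data known.

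All animals were adult male C57BL/6J mice of 21.4 to 22.1 g, and each array held RNA from the operated side's cortex of 1 mouse. In the tMCAO group (transient middle cerebral artery occlusion, n = 3) a silicone-coated filament closed the artery for 1 h and was withdrawn, and the mice were killed 12 h after blood flow returned. The sham group (n = 3) had the operation with no filament, and no genetic change was listed for either group. Both groups' RNA was digested with RNase R, so a signal at an mRNA probe shows what was left after digestion and not the level of the transcript in the tissue. The comparison asks whether this residual mRNA signal differed after stroke and how it sits beside the circRNA signal on the same arrays.

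Actb encodes cytoplasmic β-actin, the subunit of the actin filaments that shape cells and fill dendritic spines, and is widely used as a reference gene. Gpi1 encodes glucose-6-phosphate isomerase, which converts glucose-6-phosphate to fructose-6-phosphate early in glycolysis. Prdx2 encodes peroxiredoxin 2, a thiol peroxidase of the cytosol that removes hydrogen peroxide and is abundant in neurons and red cells. Chgb encodes chromogranin B, a granin stored with neuropeptides in the dense-core vesicles of neurons and endocrine cells. Linear mRNAs have free ends that RNase R can enter, whereas circRNAs, closed by back-splicing, have none.

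Levels are given as log2 of the processed spot intensity, averaged over up to 10 spots of a probe. A scaled level is this value minus the 75th percentile of the circRNA probes on the same array, so a scaled level of 0 is the brightness that 75% of circRNA probes do not reach. A probe counts as detected on an array if the scanner software marked more than 0.5 of its unflagged spots as well above background. The arrays detected 19 to 32 of the 50 mRNA probes and 1089 to 1444 of the circRNA probes, and none had a saturated spot. The 75th percentile was lowest on tMCAO 3 at 6.17 and highest on tMCAO 1 at 7.37 (log2). Sham 3 stood apart from the other sham arrays. Over the probes tested it correlated at r = 0.971, 0.957 and 0.987 with tMCAO 1 to 3. With sham 1 and sham 2 it correlated at 0.925 and 0.939 (correlations over probes, which are not replicates). The first part of the barcode in the file headers was 2 for sham 3 and tMCAO 3 and 1 for the other 4 arrays. It is read here as the array row, which the labels do not give. With 6 arrays, precision is limited by their number.

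The description as abundant held for brightness in only part of the 4. Actb and Gpi1 were detected on all 6 arrays, Prdx2 on 5 and Chgb on 3, so all 4 met the filter of detection on at least 3 arrays. In order of mean brightness among the 50 mRNA probes, Gpi1 ranked 8, Actb 10, Prdx2 22 and Chgb 29. All 4 had scaled levels below 0 on every array. Brightness depends on the probe as well as on the RNA, so these ranks do not order transcripts by abundance. Probes brighter on average than Actb included that for Olfr166, an olfactory receptor, named after its values were seen. In the text below the genes are therefore called the 4 mRNAs. Fewer cells of a type and less RNA per cell cannot be told apart in such tissue samples.

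Actb had the most even signal of the 4. Its scaled level was -0.64, -0.81 and -0.65 on tMCAO 1 to 3 and -0.85, -0.63 and -0.77 on sham 1 to 3. The groups overlapped, and the whole range was 0.22 (log2). Before scaling, the intensities were 107, 49.6 and 46.0 in tMCAO and 75.4, 83.2 and 60.0 in sham, and they too overlapped. Every unflagged Actb spot was well above background, and spots of 1 array differed by an SD of 0.03 to 0.11. β-actin has close relatives such as γ-actin, so which actin transcript bound the probe is uncertain.

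Gpi1 was about as bright as Actb, with 1 array apart. The scaled level was -0.48, -0.71 and -0.39 on tMCAO 1 to 3 and -0.36, -1.16 and -0.51 on sham 1 to 3. Sham 2 held the lowest value and sham 1 the highest, so the sham group enclosed the tMCAO group. The unscaled intensities were 119, 52.8 and 55.3 in tMCAO and 106, 57.6 and 71.8 in sham. All unflagged spots were well above background on every array, and the SD between spots was 0.03 to 0.11.

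Prdx2 was the mRNA of the 4 with the widest range, 1.26 (log2). Its scaled level was -2.93, -2.45 and -2.86 on tMCAO 1 to 3 and -1.67, -1.81 and -2.89 on sham 1 to 3. Sham 1 and sham 2 were above every tMCAO array, and sham 3 was among the tMCAO values. The unscaled intensities were 21.9, 16.1 and 10.3 in tMCAO and 42.8, 36.7 and 14.2 in sham. Spots well above background numbered 10 of 10, 8 of 10 and 0 of 9 in tMCAO and 10 of 10, 10 of 10 and 6 of 10 in sham. The tMCAO mean thus includes 1 array, tMCAO 3, on which the probe was not well above background. Spots were least alike on tMCAO 3 and sham 3, with an SD of 0.39 on each, against 0.07 on sham 1 and 0.11 on sham 2.

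Chgb was the dimmest of the 4. The scaled level was -3.01, -3.06 and -3.46 on tMCAO 1 to 3 and -2.84, -3.11 and -3.04 on sham 1 to 3, with overlapping groups. The unscaled intensities were 20.8, 10.8 and 7.11 in tMCAO and 19.1, 15.1 and 12.6 in sham. Spots well above background numbered 10, 3 and 0 of 10 in tMCAO and 10, 6 and 5 of 10 in sham. It was therefore measured on 1 of 3 tMCAO arrays and 2 of 3 sham arrays, and the other 3 values are readings near background. On tMCAO 3, where the SD between spots was 0.64, the level was 1.12 (log2) above the median of the 77 negative control spots.

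**Figure D1:**
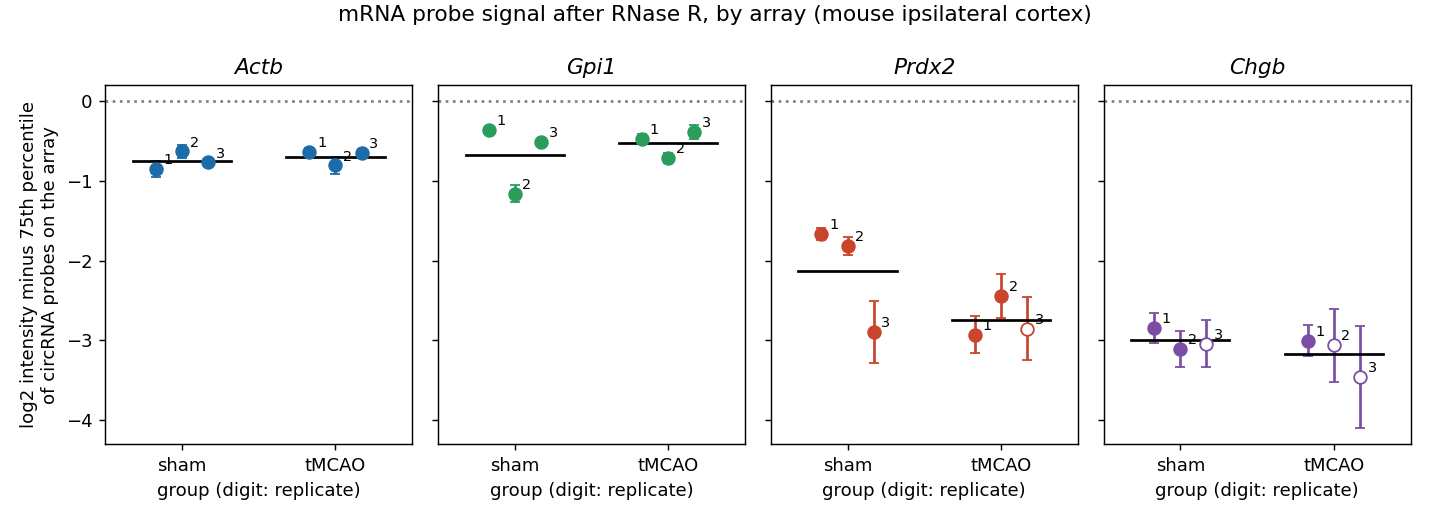
Scaled log2 intensity (vertical axis) of the 4 mRNA probes on each array, by group, with the replicate number beside each point. Error bars are the SD over the probe's spots, black lines are group means, open points are arrays where the probe was not well above background, and the dotted line is the 75th percentile of circRNA probes. Prdx2 was high on sham 1 and sham 2 (-1.67 and -1.81) and low on sham 3 (-2.89).

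Set among the circRNA probes of the same array, the 4 mRNAs fell into a brighter and a dimmer pair. Actb exceeded 65.4% ± 1.18 (SD over 6 arrays) of circRNA probes, with a range of 64.3% to 67.1%. Gpi1 exceeded 66.9% ± 4.32, and its lowest value, 58.8%, was on sham 2. These percentiles do not depend on the scaling, and for Actb they spanned under 3 percentage points while its unscaled level spanned 1.21 (log2).

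Prdx2 exceeded 38.3% ± 8.94 of circRNA probes, from 29.2% on tMCAO 1 to 50.9% on sham 1. Chgb exceeded 29.2% ± 2.01, from 26.8% on tMCAO 3 to 32.6% on sham 1. Against the circRNA probes detected on each array alone, the mean percentiles were lower, at 50.8% for Actb, 53.0% for Gpi1, 13.7% for Prdx2 and 3.65% for Chgb. So Actb and Gpi1 were as bright as a middling detected circRNA probe, and Chgb was near the bottom of the detected range.

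The negative control spots give the background measured in the same way. Actb lay 3.93 to 5.39 (log2) above their median and Gpi1 4.20 to 5.55. Prdx2 lay 1.73 to 4.12 above it and Chgb 1.12 to 3.02. For each of the 4, the smallest margin was on tMCAO 3, the dimmest array.

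**Figure D2:**
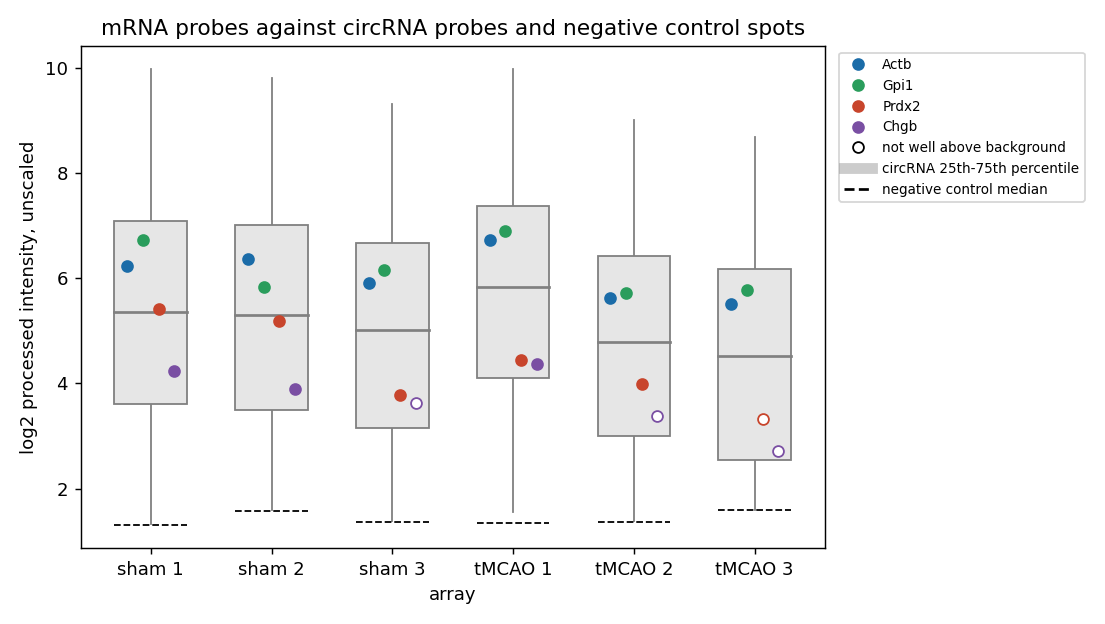
Unscaled log2 intensity (vertical axis) of the 4 mRNA probes on each array, over boxes that span the 25th to 75th percentile of circRNA probes with the median line and whiskers from the 5th to the 95th percentile. Dashed lines are the median of 77 negative control spots. Actb and Gpi1 lie in the upper part of the box on every array, and Chgb on tMCAO 3 is 1.12 above the negative control median.

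Unscaled signal followed the overall brightness of the array more closely for some of the 4 than for others. Over the 6 arrays the unscaled level correlated with the 75th percentile of circRNA probes at r = 0.978 for Actb, 0.973 for Chgb, 0.807 for Gpi1 and 0.754 for Prdx2. These are descriptions over 6 arrays whose points share labelling and scan. Unscaled Actb and Chgb correlated with each other at 0.907. After scaling, no pair among the 4 exceeded r = 0.467, the value for Chgb and Prdx2, and Actb and Chgb were at -0.581. Scaling subtracts the same number from every probe of an array, so it acts on these correlations.

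**Figure D3:**
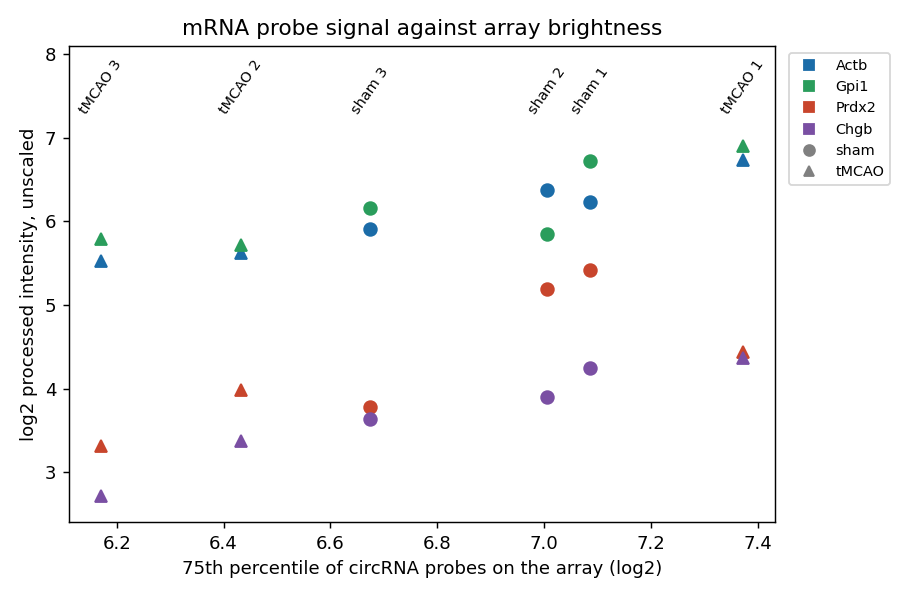
Unscaled log2 intensity of the 4 mRNA probes (vertical axis) against the 75th percentile of circRNA probes on the same array (horizontal axis, log2), with circles for sham and triangles for tMCAO. Actb rises with array brightness in near proportion (r = 0.978), whereas Prdx2 on tMCAO 1, the brightest array at 7.37, is below its level on sham 1 and sham 2.

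The spread between arrays set the 4 apart from one another. The SD of the scaled level over 6 arrays was 0.10 for Actb, 0.20 for Chgb, 0.30 for Gpi1 and 0.57 for Prdx2, and the median over 1334 probes tested was 0.33. A smaller SD than that of Actb was found in 1.57% of these probes, and in 1.12% of the 269 probes within 0.5 (log2) of its level. For Chgb the share with a smaller SD was 20.3%, for Gpi1 44.8% and for Prdx2 82.8%. Among the 29 mRNA probes tested, Actb had the smallest SD and Chgb the next, with Gpi1 at rank 5 and Prdx2 at rank 18. The probe-level standard error from spots was 0.02 for Actb and Gpi1, 0.09 for Prdx2 and 0.12 for Chgb. This error covers spot noise alone, whereas the SD between arrays also holds differences between mice, digestion, labelling and hybridisation. The spread of Chgb was measured near background, on 3 arrays without detection.

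**Figure D4:**
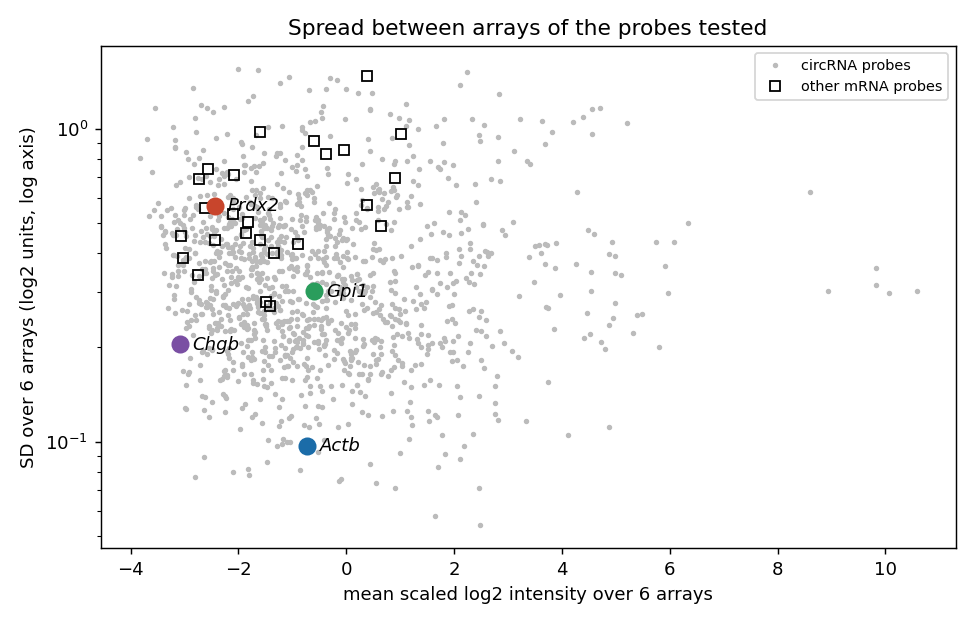
SD over 6 arrays (vertical log axis, log2 units) against mean scaled log2 intensity (horizontal axis) for the 1334 probes tested with a value on every array. Grey points are circRNA probes, open squares other mRNA probes and coloured points the 4 mRNAs. Actb, at an SD of 0.10, lies below every other mRNA probe, and Prdx2, at 0.57, lies above the median of 0.33.

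Between tMCAO and sham, none of the 4 mRNAs changed by the test across all probes. The Actb mean was -0.70 ± 0.09 (SD, n = 3) after tMCAO and -0.75 ± 0.11 after sham surgery, which differ by 0.05 ± 0.18 (SE). Its 95% interval ran from -0.37 to 0.48, or 0.772-fold to 1.39-fold. The sign was not settled, since it was -0.05 under another background correction (normexp), -0.03 when scaled to the circRNA median and -0.21 without scaling.

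The Gpi1 mean was -0.52 ± 0.17 (SD, n = 3) after tMCAO and -0.68 ± 0.43 after sham surgery, which differ by 0.15 ± 0.26 (SE). Its interval was 0.732-fold to 1.69-fold. The sign turned without scaling (-0.11) and without sham 2 (-0.09).

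The Chgb mean was -3.18 ± 0.25 (SD, n = 3) after tMCAO and -2.997 ± 0.14 after sham surgery, and the difference was -0.18 ± 0.21 (SE), with an interval of 0.630-fold to 1.24-fold. It was below 0 in all 23 alternatives, from -0.44 to -0.02. Those that changed only the variance model, the blocks or the probe filter returned the same -0.18, so their sign could not differ. Without tMCAO 3, where no spot was well above background, the difference was -0.04.

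The Prdx2 mean was -2.75 ± 0.26 (SD, n = 3) after tMCAO and -2.12 ± 0.67 after sham surgery. The difference of -0.62 ± 0.35 (SE), or 0.650-fold, was the largest of the 4, with an interval of 0.371-fold to 1.14-fold. Among all probes tested, 14.4% had a larger difference in either direction, against 64.2% for Chgb, 68.9% for Gpi1 and 89.4% for Actb.

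The adjusted p-values (limma, Benjamini-Hochberg over 1336 probes) were 0.915 for Actb, 0.815 for Gpi1, 0.734 for Chgb and 0.596 for Prdx2. Of the 4, 0 had an adjusted p under 0.05 in limma, as did 0% of all probes tested. Likewise 0 of 4 had an unadjusted p under 0.05, where 7.11% of all probes did, and 0 of 4 had groups that did not overlap, where 11.9% did. The unadjusted p-values were 0.785, 0.574, 0.420 and 0.114 in the same order. Exact permutation tests of the scaled level (two-sided) gave p = 0.7 for Actb, 0.7 for Gpi1, 0.5 for Chgb and 0.3 for Prdx2, and no p below 0.1 can come from 3 arrays against 3.

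**Figure D5:**
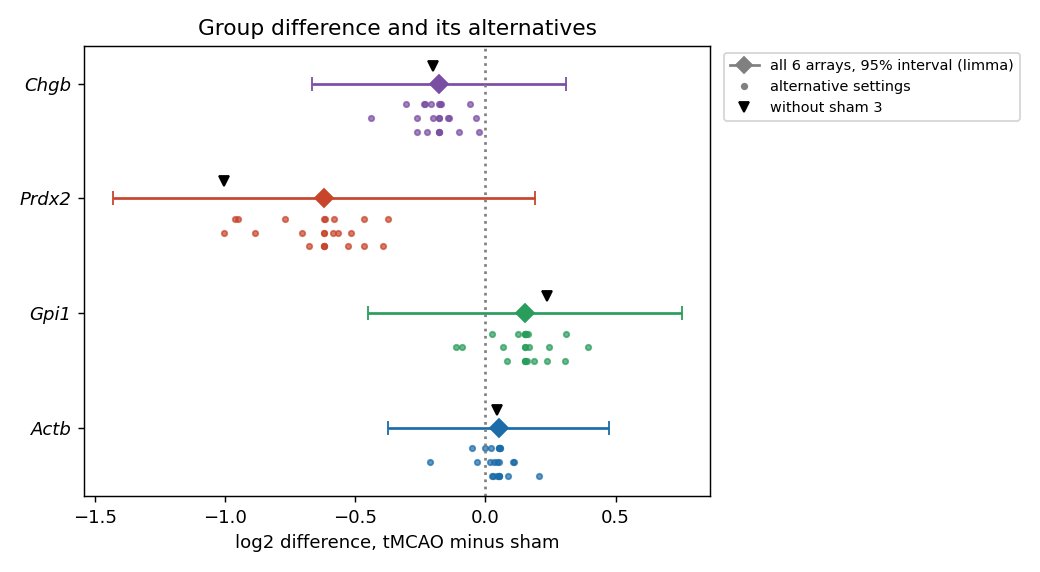
Difference between tMCAO and sham (horizontal axis, log2, tMCAO minus sham) for the 4 mRNAs. Diamonds are the values with all 6 arrays and bars their 95% intervals from limma, dots are the alternative settings, and triangles the fit without sham 3. All 4 intervals include 0. Dots fall on both sides of 0 for Actb and Gpi1, and Prdx2 moves from -0.62 to -1.004 without sham 3.

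The Prdx2 call depended on sham 3. Without that array the difference was -1.004 ± 0.23 (SE) with an adjusted p of 0.0378 (limma). In that fit 125 of 1336 probes passed the adjusted threshold where all 6 arrays gave 0. The 125 included 9 of the 29 mRNA probes tested, whose median difference was then -0.63. With arrays weighted by limma, where sham 3 had the lowest weight at 0.290, the Prdx2 difference was -0.96 with an adjusted p of 0.0235. Of 1336 probes 240 then passed, 15 of the 29 mRNA probes among them, with a median mRNA difference of -0.54. The weights were estimated from the same 6 arrays and the p-values take them as known. The weighted fit is thus not independent of the fit without sham 3. Over all 23 alternatives the adjusted p for Prdx2 (limma) ranged from 0.0235 to 0.997. The difference stayed below 0 in each, from -1.004 to -0.37. In those that changed only the variance model, the blocks or the probe filter, the difference was the main value and could not change sign.

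Sham 3 minus the mean of sham 1 and sham 2 was -1.15 (log2) for Prdx2, and 8.98% of all probes tested were lower still by this measure. For the other genes it was -0.02 for Actb, -0.07 for Chgb and 0.25 for Gpi1. Of the 29 mRNA probes tested, 22 were lower on sham 3, with a median of -0.72, whereas 566 of 1307 circRNA probes were lower, with a median of 0.10. Within array row 1, which leaves out sham 3 and tMCAO 3, Prdx2 differed by -0.95 ± 0.28 (SE) with an adjusted p of 0.124 (limma, 2 arrays in each group). With array row as a block it differed by -0.62 with an adjusted p of 0.470, and row 2, with a lone array from each group, could not be tested. The part of array position or of RNase R digestion in these values was not tested.

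Ratios between 2 of the genes on the same array cancel the scaling. Actb minus Prdx2 was 2.05 ± 0.36 (SD, n = 3) after tMCAO and 1.38 ± 0.68 after sham surgery, a change of 0.67 (exact permutation test, two-sided, p = 0.2). Gpi1 minus Prdx2 changed by 0.77 (exact p = 0.2) and Chgb minus Prdx2 by 0.44 (exact p = 0.3). Actb minus Gpi1 was -0.17 ± 0.09 in tMCAO and -0.07 ± 0.54 in sham, a change of -0.10 (exact p = 0.9). Actb minus Chgb changed by 0.23 and Chgb minus Gpi1 by -0.33 (exact p = 0.5 for each). The groups overlapped in all 6 pairs, and the p-values are not adjusted.

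Probes that resembled each of the 4 over the 6 arrays were taken from those detected on all arrays, by Pearson's r of scaled levels. Prdx2 had close partners: Gamt, an enzyme of creatine synthesis, at r = 0.993, and Lhx1, a LIM homeobox transcription factor, at 0.983. Its closest circRNA probe was ASCRMP000258, at 0.999, and 11.2% of 1072 circRNA probes exceeded 0.9. Like Prdx2, Gamt was high on sham 1 and sham 2, at 0.78 and 0.49, and lowest on tMCAO 1 and sham 3, at -1.15 and -1.13.

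Actb had no such partner among the mRNAs. The nearest were H2-Q7, an MHC class I gene, at 0.399 and Olfr1307, an olfactory receptor, at 0.132, and the nearest circRNA probe was ASCRMP001293 at 0.970. For Gpi1 they were Mbp, a myelin protein, at 0.648 and H2-Q7 at 0.387, with ASCRMP000047 at 0.920. For Chgb they were Pex11a, a peroxisomal membrane protein, at 0.535 and Gamt at 0.389, with ASCRMP000800 at 0.960. Only 0.187% of circRNA probes exceeded 0.9 with Actb or with Gpi1, and 0.0933% with Chgb. These are the highest of many correlations over 6 arrays that share their scaling, and they are given as descriptions.

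Each of the 4 was the sole gene of its fixed list with a named probe on the array. Of 26 actins and actin regulators only Actb had a probe, and of 22 glycolysis genes only Gpi1. Only Prdx2 did of 26 listed peroxiredoxin, thioredoxin, glutathione and other antioxidant genes, and only Chgb of 23 granins and other dense-core vesicle genes. The other genes on these lists were therefore not measured. Outside the lists, and named after its values were seen, Gsta4, a glutathione S-transferase, had a probe that was detected on 0 of 6 arrays and was not tested. Of the markers listed for other cell types, Apoe (astrocytes) and Mbp (oligodendrocytes) had probes and were tested, with differences of -0.67 ± 0.28 (SE) and -0.03 ± 0.25. None of the 9 neuronal, 6 microglial, 4 endothelial, 4 neutrophil or 4 erythroid markers had a named probe. Apoe and Mbp were detected on all 6 arrays, but so were the olfactory receptor probes Olfr166 and Olfr1307. Detection of these 2 markers therefore cannot check the labelled tissue. Over the 29 mRNA probes tested the median difference was -0.25, with 9 higher and 20 lower in tMCAO, and over the circRNA probes it was 0.03. In that order of differences, counted from the most negative, Prdx2 ranked 10, Chgb 18, Actb 21 and Gpi1 24.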

How the data were processed

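Cy3-labelled RNA of 6 mice, 3 tMCAO and 3 sham, was measured on 1-colour arrays. The deposited values are spot intensity values made with Agilent Feature Extraction 11.0.1.1 on a linear scale, with background subtraction and spatial detrending and no scaling across arrays, per the file headers, which also give the spot flags used and the build mm9. RNA was RNase R-digested and randomly primed, per the labels' protocols. Outlier spots (non-uniform or population flags) were dropped, log2 values were averaged per probe, and the 75th percentile of an array's circRNA probes was taken off every probe. Probes detected on at least 3 arrays (1307 circRNA, 29 mRNA) entered 1 limma 3.58.1 fit (R 4.3.3, group as sole term, two-sided). The fit was tested on data simulated with independent normal noise, of equal spread on all arrays. That test does not cover an array that departs as a whole, as sham 3 did. mRNA probes were named through RefSeq accessions of GRCm38.p6, which matched 44 of 50. The genes, gene lists and tests were chosen with earlier results of these data known. Named partners were, for each gene, the 2 mRNA probes and the circRNA probe of highest r. Probe sequences and positions were not used here. Replicate numbers were not used as pairs in the main fit. Deviations from the group means correlated at -0.15, 0.47 and 0.18 between same-numbered arrays, too few values to settle whether samples were paired. Alternatives covered background, scaling, spots, filters, variance models, weights, blocks and leaving out each array.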

Additional observations from a re-analysis of the deposited data

How the results depend on the processing

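Of the alternatives, scaling to the median of the mRNA probes tested was chosen after the data were seen. Actb changed sign with normexp (-0.050), circRNA median scaling (-0.031) and no scaling (-0.211), and Gpi1 with no scaling (-0.111). With 1 array left out Gpi1 ran from -0.091 to 0.311 and Prdx2 from -1.004 to -0.392, the extremes without sham 2 and sham 1 for Gpi1 and without sham 3 and sham 1 for Prdx2. Array weights gave -0.961 for Prdx2. The count of probes with an adjusted p under 0.05 (limma), 0 with all arrays, was 6 without scaling, 240 with array weights and 0 to 125 with 1 array left out, the highest without sham 3. Of the 29 mRNA probes tested, 4 had an unadjusted p under 0.05 (limma), and Actb, Gpi1, Chgb and Prdx2 were not among them. That count became 8 without scaling, 2 in a fit of mRNA probes alone and 20 with array weights. It was 11 in row 1 alone, 7 with scaling to the mRNA median and 0 to 15 with 1 array left out. Against detected circRNA probes alone the percentiles were 50.8 for Actb, 53.0 for Gpi1, 13.7 for Prdx2 and 3.65 for Chgb. The replicate block changed no call, with Prdx2 at -0.621 (adjusted p 0.512, limma). The median difference over all probes, 0.02, moved to 0.18 when scaled over circRNA probes detected on all arrays and to -0.24 without scaling. Chgb and Prdx2 had no value where detection on all 6 arrays was required. The cause was not tested, beyond the fewer arrays or probes in some fits. Of 181 recomputed values 157 were counted as unchanged. For differences this meant the same sign and call, for counts of probes a similar count, and for percentiles a shift smaller than the SD over 6 arrays. Actb at 0.000 without sham 1 thus counted as unchanged. Leaving out 1 of 6 arrays cannot shift a mean percentile by that SD, so those percentiles could only count as unchanged. Fits that changed only the variance model, the blocks or the probe filter kept each difference as it was, so its sign could not turn. The count of unchanged values is therefore not a measure of how firm the results are. Signal over background limits Chgb and, on tMCAO 3, Prdx2.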
